A study of Homo sapiens with 17 samples.

Results

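RNR1 and RNR2, the genes of the 12S and 16S rRNAs of the mitochondrial ribosome, are 2 of the 37 genes of the human mitochondrial genome. They were chosen by name, and both had a gene row, an exon row, and an rRNA row in the deposited count table of all 17 libraries. On the NC_012920.1 sequence of chromosome MT, RNR1 lies at MT:648-1601 (954 bases) and RNR2 at MT:1671-3229 (1559 bases). TRNF (MT:577-647), TRNV (MT:1602-1670), and TRNL1 (MT:3230-3304) abut them, so that the order is TRNF, RNR1, TRNV, RNR2, TRNL1, with ND1 after TRNL1. Each rRNA gene is a single exon with no intron, and all 37 gene rows matched the symbol, start, and end of a RefSeq gene.

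The heavy strand of the mitochondrial genome is transcribed as a long precursor that holds both rRNAs. The tRNAs between the larger genes mark the places where the precursor is cut, and a transcription termination factor is known to bind within TRNL1, just past RNR2. The light strand is transcribed through the same region in the opposite direction, and RNA of the 2 strands can pair as mitochondrial dsRNA.

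RNA bound by J2, an antibody against dsRNA, was precipitated from the non-small cell lung carcinoma lines H1437, H23, and PC9, tailed with poly(A), and sequenced as nanopore PCR-cDNA reads. The first experiment held 3 untreated libraries per line, numbered 1 to 3. The second held 1 library per line with IMT1, an inhibitor of the mitochondrial RNA polymerase, and 1 without. The last held 1 H23 library with knockdown of ADAR1, an enzyme that edits adenosine to inosine in dsRNA, and 1 without. The knockdown was made with siRNA, and its control received a nontargeting siRNA according to the study. All lines are established cell lines, and the dose and time of IMT1 are not given in the labels. The controls of both treatments are numbered in the labels as further replicates (4 and 5) of their line with no treatment, and their alignment names were used to tell them from the untreated libraries.

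The libraries held 37113 to 6295486 total reads, of which 4100 to 191062 (1.14% to 47.2%) mapped to chromosome MT. In H1437 replicate 1 and PC9 replicate 1, 18 and 20 of the 22 tRNA gene rows held 0 reads, against at most 11 in any other library, so that P values across lines are also given without both. The mapped share averaged 17.5% ± 6.68 over the untreated H23 libraries, 4.81% ± 1.80 over those of H1437, and 3.98% ± 3.03 over those of PC9 (SD, n = 3 each). One passage of the study gives these same averages with the names H1437 and H23 exchanged. Other passages name H23 for the strongest mitochondrial signal. The lines are named here by their labels alone. Which naming is right was not tested, and it bears on every comparison of H23 with H1437. The reads were mapped to chromosome MT alone. RefSeq lists 13 nuclear MTRNR2L genes, which resemble RNR2, and their reads were not set apart. The counts do not separate the strands, so RNA antisense to RNR1 or RNR2 is counted together with the rRNA itself. In public RNA-seq reads of H23, the study found most light-strand reads within or antisense to these genes. No input libraries were analyzed here, so each value is that of the captured RNA. Fewer captured molecules per cell and fewer cells cannot be told apart in such values.

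The study used primers named for both genes, and these are shown because they are its sequences at the rRNA genes outside the libraries. Those of RNR1 served strand-specific RT-qPCR. Those of RNR2 are not a pair that measures RNR2. The forward primer was paired with one in COX3 and the reverse primer with one in ND5, to amplify mitochondrial DNA for long-read sequencing. Each primer is written 5′ to 3′.
RNR2 reverse primer (RNR2-2): ggcggtgcctctaatactggtg
RNR1 primer of the light strand: agggctaagcatagtggggt
RNR2 forward primer (RNR2-1): accctcactgtcaacccaacacag
RNR1 primer of the heavy strand: cccctccccaataaagctaaa
The RNR1 primer of the light strand is 20 bases long. It differed at 1 base from the gene-specific part of the bait for the heavy strand of RNR1 (C9G, the base of the bait first, counted from the 5′ end).

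Which rRNA gene was captured more was asked per base, since the genes differ in length. Reads counted on the rRNA row were divided by the length of the gene, and the ratio of RNR1 to RNR2 is given on the log2 scale, where 0 means equal density. In H1437 the log2 ratio was 0.073, 0.38, and -0.36 in replicates 1, 2, and 3. In H23 it was 1.15, 1.17, and 1.05, and in PC9 it was 0.50, 0.70, and 0.38. RNR1 was thus read more densely than RNR2 in 8 of the 9 untreated libraries, the exception being H1437 replicate 3, and every H23 library lay above every library of the other lines. This order depends on the division by length, since each read counts once whatever its own length. Without it, RNR1 had fewer reads than RNR2 in every untreated H1437 and PC9 library (0.476 to 0.993 RNR1 reads for each RNR2 read). It had more in every untreated H23 library (1.27 to 1.38). Over the 9 libraries the mean log2 ratio was 0.56 ± 0.52 (SD, n = 9; exact permutation of signs, two-sided P = 0.0117). On the gene rows, which leave out reads that also cover a neighbor, the mean was 0.89 (exact permutation of signs, P = 0.00781). Both tests treat the 9 libraries as independent, although they come from 3 lines that differed in this ratio. Same-numbered H1437 and PC9 libraries also deviated together. These P values therefore do not measure the spread between lines.

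Across the cell lines the ratio was highest in H23. The mean log2 ratio was 0.030 ± 0.37 in H1437, 1.13 ± 0.064 in H23, and 0.53 ± 0.16 in PC9 (each with its SD over n = 3 libraries). Permuting the libraries among the lines in all 1680 divisions gave an exact two-sided P = 0.00714 for the F statistic. It came to 0.05 after Benjamini-Hochberg adjustment over the 7 measures compared in this way, and so reached but did not pass the threshold of 0.05. This test treats all libraries as independent, although same-numbered H1437 and PC9 libraries deviated together. Permuting the lines within each replicate number gave an exact P = 0.0278, although same-numbered H23 libraries did not deviate with the others. On the linear scale H23 held 2.18 ± 0.0960 RNR1 reads per base for each RNR2 read per base, H1437 1.04 ± 0.263, and PC9 1.45 ± 0.162 (SD over n = 3 libraries). By the difference of the mean log2 ratios, H23 was 2.14-fold above H1437 and 1.51-fold above PC9 (exact permutation tests of the pairs, P = 0.1 each, the smallest that 3 against 3 libraries allow). H1437 and PC9, neighbors in this order, overlapped (difference -0.50 on the log2 scale, exact permutation P = 0.2). Same-numbered libraries of these lines deviated together and count as pairs, and within pairs the ratio was lower in H1437 in 3 of 3, by -0.43, -0.32, and -0.75 in replicates 1, 2, and 3 (mean -0.50 ± 0.22, SD; exact sign-flip permutation test, P = 0.25, the least that 3 pairs can give). The RNR1 share of mapped reads and the lost shares of RNR1 and RNR2 (the part of their reads that also covered a neighboring gene) were also lower in H1437 in 3 of 3 pairs (P = 0.25 each by the same exact permutation test). The RNR2 share of mapped reads was lower in 2 of 3 pairs, and the levels of RNR1 and of RNR2 per total reads in 1 of 3 each.

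The libraries of the other experiments set limits to this order. Among the controls of the IMT1 experiment, H23 was again highest, at 1.65, with H1437 at 1.01 and PC9 at 0.40. With these 3 controls added to the untreated libraries the exact permutation P was 0.00918. The control of the ADAR1 knockdown, also H23, had a log2 ratio of -0.011, which is below each of the other 4 untreated or control H23 libraries. When it was included as well, the P rose to 0.137, although H23 kept the highest mean under all 15 alternatives tried. Without H1437 replicate 1 and PC9 replicate 1, P was 0.0190.

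**Figure D1:**
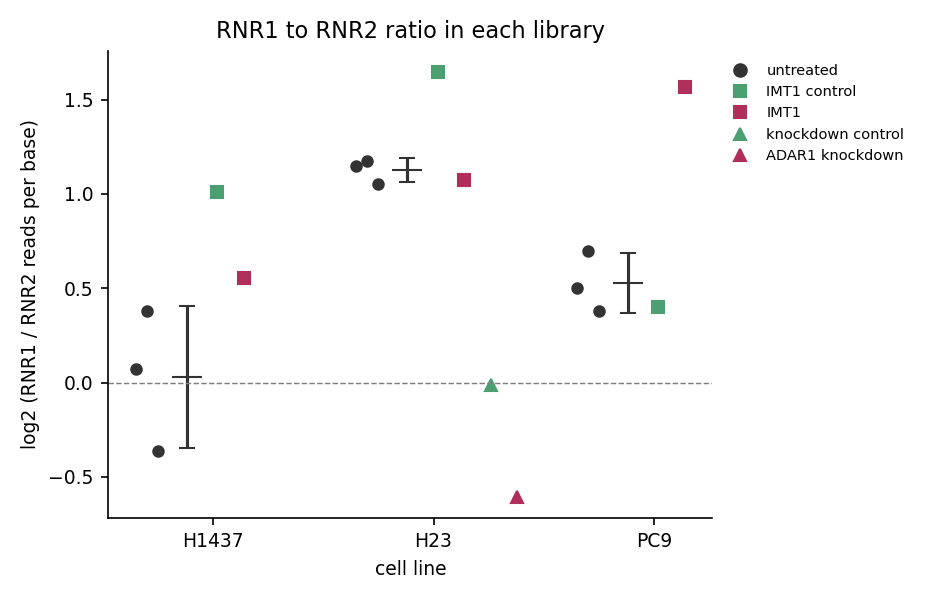
Log2 ratio of RNR1 to RNR2 reads per base (y axis) in all 17 libraries by cell line (x axis). Circles are the untreated libraries, with their mean and SD (n = 3) as a bar beside them, squares and triangles are single libraries of the IMT1 and knockdown experiments, and the dashed line marks equal density. The untreated H23 libraries sit between 1.05 and 1.17, above all untreated libraries of the other lines, while the knockdown control of H23 sits at -0.011.

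How much RNA of each rRNA gene was captured, from either strand, was first set against all reads sequenced. RNR1, which forms the core of the small ribosomal subunit, had 10708, 11422, and 7269 rRNA-row reads per 1000000 total reads in H1437 replicates 1, 2, and 3. It had 27211, 14944, and 31467 in H23 and 8089, 22762, and 5850 in PC9. The H23 libraries all lay above the H1437 libraries, and the PC9 libraries spread across both. The means were 9800 ± 2220, 24541 ± 8579, and 12233 ± 9186 (SD over n = 3 libraries; exact permutation across lines, P = 0.0786, adjusted P = 0.138, and P = 0.295 without H1437 and PC9 replicate 1). Higher values in each H23 than in each H1437 library were common, with 47.4% of the 38 single coding, rRNA, tRNA, and D-loop rows meeting this criterion, so that the separation is not peculiar to RNR1.

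RNR2, the rRNA of the large subunit, had 16638, 14330, and 15287 reads per 1000000 total reads in H1437, 20032, 10826, and 24786 in H23, and 9338, 22928, and 7339 in PC9. All 3 lines overlapped. The means of 15419 ± 1160, 18548 ± 7098, and 13202 ± 8482 (SD over n = 3 libraries) differed by less than the replicates of H23 or PC9 did (exact permutation P = 0.593, and 0.810 without H1437 and PC9 replicate 1). H23 was thus 2.50-fold above H1437 in the mean level of RNR1 and 1.20-fold above it in that of RNR2. PC9 replicate 2 held the highest level of its line for both genes, and without it the exact permutation P across lines for RNR1 was 0.0464.

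Set against the reads that mapped to chromosome MT, the order of the lines was different. RNR2 took 54.8%, 30.1%, and 23.1% of mapped reads in H1437 replicates 1, 2, and 3, 18.2%, 6.37%, and 10.2% in H23, and 49.4%, 30.8%, and 28.2% in PC9. Each H23 library was below each library of the other lines. The means were 36.0% ± 16.7, 11.6% ± 6.03, and 36.1% ± 11.6 (SD over n = 3 libraries; exact permutation across lines, P = 0.125, adjusted P = 0.175). RNR2 was the 1 row of 38 (2.63%) that was lower in each H23 than in each H1437 library, and 1 of 2 rows (5.26%) that were lower in each H23 than in each PC9 library, the other being TRNG, which was looked up after its values were seen. Without H1437 replicate 1, which has the highest RNR2 share of its line, the exact permutation P was 0.0286, and over all libraries left out in turn it ran from there to 0.211. Without both H1437 and PC9 replicate 1 it was 0.0667, and on the log2 scale with all 9 libraries it was 0.0321.

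RNR1 took 35.3%, 24.0%, and 11.0% of mapped reads in H1437, 24.7%, 8.79%, and 12.9% in H23, and 42.8%, 30.6%, and 22.5% in PC9. These ranges overlapped. The means were 23.4% ± 12.2, 15.5% ± 8.25, and 32.0% ± 10.2 (SD over n = 3 libraries; exact permutation across lines, P = 0.236, and 0.448 without H1437 and PC9 replicate 1). With all 13 untreated and control libraries, P was 0.0193 for RNR1 and 0.0134 for RNR2, with PC9 highest in both.

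Counts of the gene rows were also tested in 1 edgeR fit of the 9 untreated libraries, over 35 genes that passed the filter on low counts. No gene was called in any comparison of 2 lines by edgeR (0%), and none by DESeq2. At an unadjusted P below 0.05 edgeR found 0 genes in each comparison, and DESeq2 found 1, 1, and 0 for H23 against H1437, H23 against PC9, and H1437 against PC9. RNR2 was at a log2 fold change of -2.24 ± 1.08 (SE) in H23 against H1437 (edgeR, adjusted P = 0.548) and -2.38 ± 1.08 in H23 against PC9 (edgeR, adjusted P = 0.873). RNR1 was at -1.37 ± 1.07 (adjusted P = 0.548) and -2.11 ± 1.09 (adjusted P = 0.873) in the same edgeR comparisons. Without H23 replicate 2, RNR1 was at -0.15 and RNR2 at -1.01 in H23 against H1437, and at -0.73 and -1.01 in H23 against PC9. Without H1437 replicate 1 they were at -0.25 and -1.36 in the first comparison, and without PC9 replicate 1 at -0.80 and -1.10 in the second. The signs depend on the scaling. With total reads as library size in place of the TMM factors, RNR1 was at 1.31 and RNR2 at 0.43 in H23 against H1437, and at 1.00 and 0.72 in H23 against PC9. Without the tRNA genes edgeR called 6 of 14 genes (42.9%) in H23 against H1437, among them RNR2 but not RNR1. In a fit of H1437 and PC9 alone with the replicate number as a block, edgeR called 10 of 33 genes (30.3%), all of them tRNA genes.

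Compared with the protein-coding genes, both rRNA genes were read densely. Density is given as rRNA-row or CDS-row reads per base per 1000000 mapped reads. Reads that cover more than 1 coding gene are absent from the CDS rows, as reads that cover both rRNA genes are from the rRNA rows. How far this lowers either density was not tested. RNR1 exceeded each of the 13 CDS rows in 16 of 17 libraries and RNR2 in 15 of 17. The exceptions were H1437 replicate 3, where CYTB had 177 against 115 for RNR1 and 148 for RNR2, and H23 replicate 2, where ND1 had 81 against 40.9 for RNR2. Over the 17 libraries RNR1 was 3.61-fold to 356-fold above the median CDS row (median 23.4-fold), and RNR2 was 2.43-fold to 270-fold above it (median 10.8-fold). The lowest of these folds were in H23 libraries for both genes, and the highest were in the PC9 control of IMT1, where the median CDS row had 1.21.

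By line, the density of RNR1 was 245 ± 128 in H1437, 162 ± 86.5 in H23, and 335 ± 107 in PC9 reads per base per 1000000 mapped reads (SD over n = 3 libraries). That of RNR2 was 231 ± 107, 74.2 ± 38.7, and 232 ± 74.2. In the median untreated library 3 tRNA rows were denser than both rRNA rows, at 1052 for TRNL1, 462 for TRNE, and 400 for TRNP, against 251 for RNR1 and 181 for RNR2. The tRNA rows span few bases, and a long read that reaches only a few bases into one is counted there in full.

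**Figure D2:**
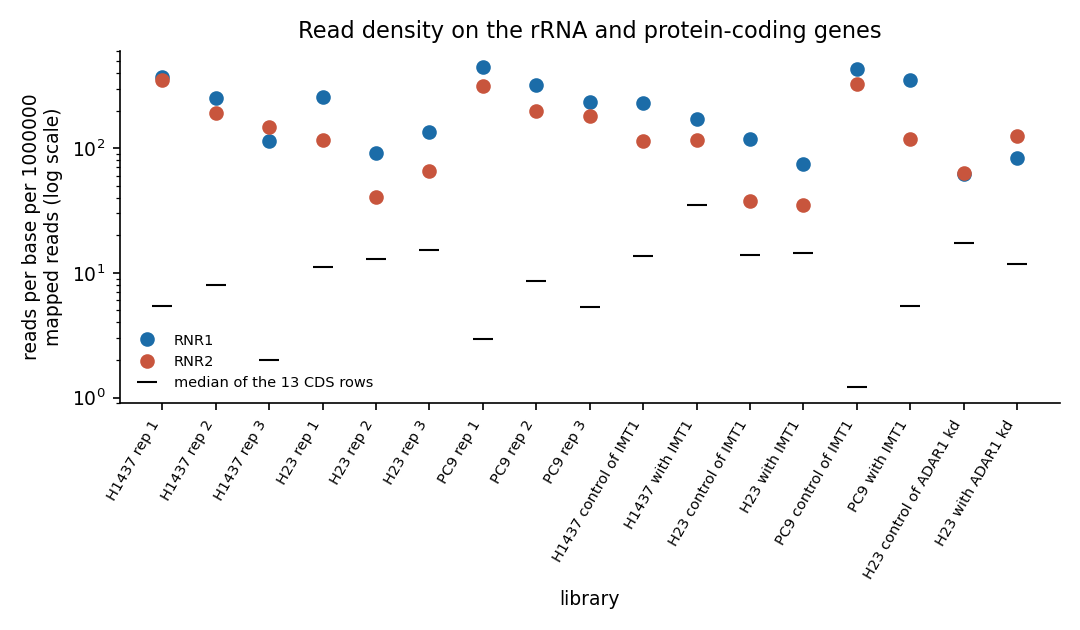
Reads per base per 1000000 mapped reads (y axis, log scale) on the rRNA rows of RNR1 and RNR2 and the median of the 13 CDS rows, in each of the 17 libraries (x axis). The rRNA points lie above the CDS median in every library, by the smallest margin in H23 libraries (the knockdown control for RNR1, the IMT1 library for RNR2) and by the largest in the PC9 control of IMT1.

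The shares of mapped reads of the rRNA genes went together across libraries. Over the 17 libraries, the log2 gene-row reads per 1000000 mapped reads of RNR1 and RNR2 had a Spearman rho of 0.78, which is a description only, since both share library, depth, and denominator. No other gene row followed either of them. The 3 highest for RNR1 were TRNC at 0.032, TRNM at 0.029, and TRNF at -0.025, and those for RNR2 were TRNM at 0.16, TRNV at 0.11, and TRNK at 0.078. The lowest rho was -0.68 with COX3 for RNR1 and -0.70 with TRNW for RNR2. All rows share the mapped reads as their total. In H1437 replicate 1 the rRNA rows of RNR1 and RNR2 took 35.3% and 54.8% of it. The values for the other rows are therefore a description only as well.

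The rows of the count table also show how far reads ran past the ends of the rRNA genes. A read that overlaps more than 1 feature of a set is absent from the count of that set. The rRNA set holds only RNR1 and RNR2, the exon set adds the tRNAs, and the gene set adds the protein-coding genes. In all 17 libraries the gene row held no more reads than the exon row, and the exon row no more than the rRNA row, so that the reads lost between the rRNA row and the gene row are those that also covered a neighbor. A read that joined RNR1 to RNR2 through TRNV is missing from the rRNA row itself and cannot be counted in this way. A read that ran from RNR2 through TRNL1 into ND1 stays on the rRNA row and is counted as lost. Reads past the 3′ end are thus not counted alike for RNR1 and RNR2.

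By this count RNR2 lost far more of its reads than RNR1, whose reads that reached into RNR2 are left out of the count. Of 104746 RNR2 reads on the rRNA row of H1437 replicate 1, 30120 were absent from the gene row, against 468 of 67413 for RNR1. For RNR2 the lost share was 28.8%, 23.7%, and 14.8% in H1437 replicates 1, 2, and 3, 11.9%, 15.7%, and 14.0% in H23, and 31.7%, 24.5%, and 25.2% in PC9. For RNR1 it was 0.694%, 0.930%, and 1.04% in H1437, 1.20%, 1.79%, and 2.00% in H23, and 1.31%, 1.02%, and 1.73% in PC9. The share was higher for RNR2 in 9 of 9 untreated libraries, by 19.8 ± 7.34 percentage points (SD, n = 9; exact permutation of signs, P = 0.00391, which no 9 libraries can go below), and in 17 of 17 libraries of the study, by 8.92 to 30.4 points. This P also treats the libraries of a line as independent and does not measure the spread between lines. Within each library the exact binomial (Clopper-Pearson) 95% intervals of the genes lay apart. In the smallest library, H23 with ADAR1 knockdown, they ran from 2.15% to 6.76% for RNR1 and from 18.7% to 24.5% for RNR2.

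Across lines, the lost share of RNR2 was 22.4% ± 7.07 in H1437, 13.9% ± 1.89 in H23, and 27.1% ± 3.98 in PC9 (each with its SD over n = 3 libraries; exact permutation across lines, P = 0.0536, adjusted P = 0.138). Every H23 library was below every PC9 library, and H1437 spanned both, with replicate 3 near the H23 values. Without H1437 replicate 1 the exact permutation P was 0.0107, and without H1437 replicate 3 it was 0.0286, within a range of 0.0107 to 0.154 over all libraries left out in turn. Without both H1437 and PC9 replicate 1 it was 0.0571, and with all 13 untreated and control libraries 0.0113. For RNR1 the order was another, with 0.886% ± 0.175 in H1437, 1.66% ± 0.414 in H23, and 1.35% ± 0.355 in PC9 (each with its SD over n = 3 libraries; exact permutation across lines, P = 0.0607, adjusted P = 0.138). H23 lay above H1437 in every library here, and PC9 overlapped both. Leaving out H23 replicate 1 brought this P to 0.0429, the lowest of a range up to 0.182 over all libraries left out in turn. Without both H1437 and PC9 replicate 1 it was 0.295, and with all 13 libraries 0.0125.

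**Figure D3:**
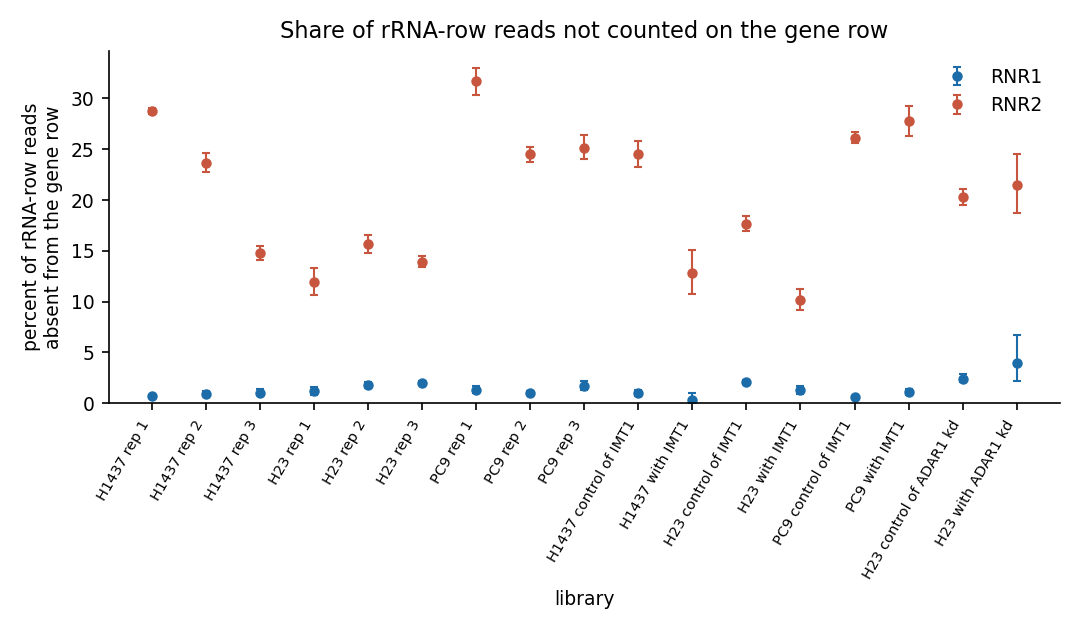
Percent of rRNA-row reads that are absent from the gene row (y axis) for RNR1 and RNR2 in each of the 17 libraries (x axis), with exact binomial 95% intervals that cover counting error only. RNR2 lies between 10.2% and 31.7% and RNR1 between 0.340% and 4.01%, and the intervals of the genes overlap in no library.

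The neighbor that the lost RNR2 reads covered was nearly always TRNL1, the leucine tRNA at its 3′ end. In H1437 replicate 1 the RNR2 exon row held 29948 fewer reads than the rRNA row, and the TRNL1 exon row held 29273 fewer than its tRNA row, out of 29331. Over all 17 libraries the reads missing for TRNL1 came to 87.0% to 99.2% of those missing for RNR2 (median 97.3%). The reads missing for TRNF, TRNV, and TRNL1 together came to 100% to 104% of those missing for RNR1 and RNR2 together, an excess of 0 to 107 reads a library. Reads shared with an rRNA gene thus accounted for the differences between the rows on both sides to within a few percent.

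TRNL1 itself was mostly seen on such joint reads in H1437 and PC9. The share of its tRNA-row reads that also covered an rRNA gene was 99.8%, 67.5%, and 92.3% in H1437 replicates 1, 2, and 3, 83.0%, 11.9%, and 29.0% in H23, and 99.7%, 71.5%, and 90.7% in PC9. H23 replicates 2 and 3 were the lowest of the 9 libraries, while H23 replicate 1 lay within the range of the other lines. The means were 86.5% ± 16.9, 41.3% ± 37.1, and 87.3% ± 14.4 (SD over n = 3 libraries; exact permutation across lines, P = 0.111, a test added after the values were seen).

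The tRNA genes on the other sides took a small part. TRNV, the valine tRNA between the rRNA genes, made up 3.81%, 6.78%, and 11.4% of the tRNA-row reads shared with an rRNA gene in H1437 replicates 1, 2, and 3. It made up 19.9%, 18.2%, and 22.7% in H23 and 4.31%, 6.36%, and 8.56% in PC9. TRNF, the phenylalanine tRNA before RNR1, made up 0.863% ± 0.616 in H1437, 3.14% ± 1.07 in H23, and 0.750% ± 0.464 in PC9 (each with its SD over n = 3 libraries). The share of TRNV was higher in each untreated H23 library than in any untreated library of the other lines. It was 19.1% in the H23 control of IMT1 and 11.3% in the H23 control of the knockdown. This comparison was made after the values were seen and was not tested.

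**Figure D4:**
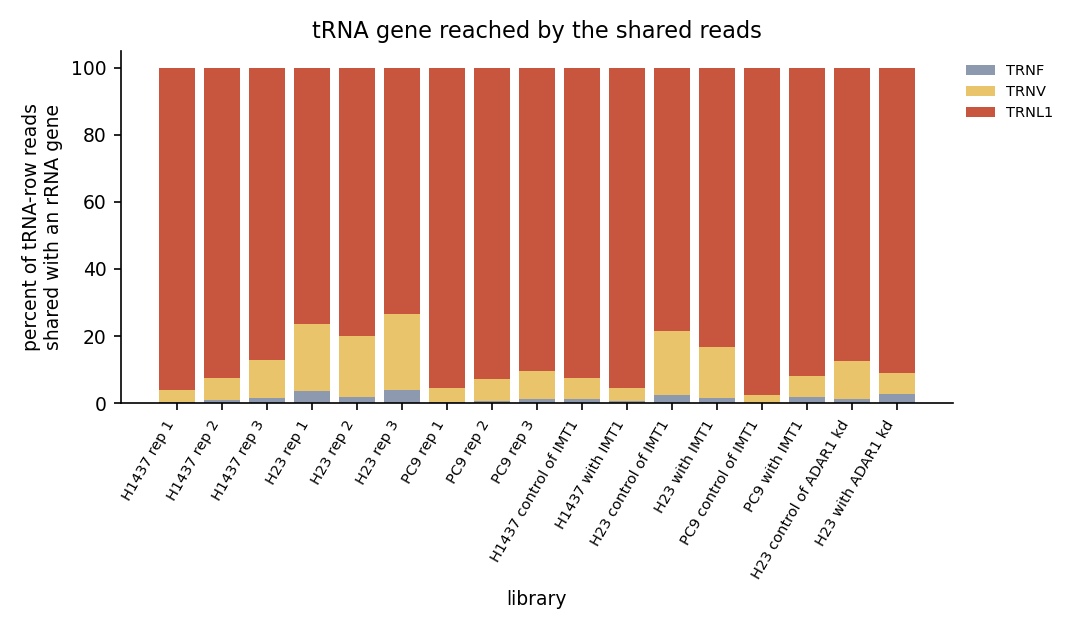
Share of the tRNA-row reads that also covered an rRNA gene (y axis, percent), divided among TRNF, TRNV, and TRNL1, in each of the 17 libraries (x axis). TRNL1 makes up 73.4% to 97.4% in all libraries, and the TRNV segment of the untreated H23 libraries, at 18.2% to 22.7%, is wider than that of any H1437 or PC9 library.

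IMT1 inhibits transcription of the mitochondrial genome, and in the study the treated libraries served as a negative control, to ask whether the captured RNA originates in mitochondria. The rRNA genes were lower with IMT1 in all 3 lines per total reads. So was the part of total reads that mapped to chromosome MT. It was 5.30% in the control and 1.14% with IMT1 in H1437, 30.5% and 9.8% in H23, and 6.73% and 3.94% in PC9. The values per total reads thus include this difference in all chromosome MT reads. In H1437, RNR1 had 11555 reads per 1000000 total reads without and 1858 with IMT1. In H23 it had 34536 without and 6929 with the inhibitor, and in PC9 27626 and 13261. For RNR2 the level was 9363 without and 2071 with IMT1 in H1437, 18038 and 5384 in H23, and 34214 and 7328 in PC9. The treated level was thus 0.161, 0.201, and 0.480 of control for RNR1 and 0.221, 0.299, and 0.214 for RNR2.

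The mean log2 change was -2.004 ± 0.83 for RNR1 and -2.05 ± 0.26 for RNR2 (SD, n = 3 lines; exact permutation of signs, P = 0.25 each, which is the least that 3 pairs can give). With IMT1, RNR2 was below every untreated and control library of the same line in all 3 lines, although in PC9 by little (7328 against 7339). RNR1 was below them in H1437 and H23, and in PC9 it lay within their range of 5850 to 27626. A lower level per total reads in all 3 lines was seen in 34.2% of the 38 rows. By edgeR with the line as a block, 0 of 33 genes were called (0%, and 2 at an unadjusted P below 0.05), with RNR1 at -1.66 ± 0.77 (SE, edgeR adjusted P = 0.591) and RNR2 at -1.59 ± 0.81 (edgeR adjusted P = 0.604). Without PC9, RNR2 was at -0.81 in this edgeR fit. DESeq2 called 3 of 33 genes (9.09%), which were RNR1 at -1.51 (adjusted P = 1.8e-13), RNR2 at -1.44 (adjusted P = 0.0120), and TRNS2, so that the call of the rRNA genes rests on the tool.

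**Figure D5:**
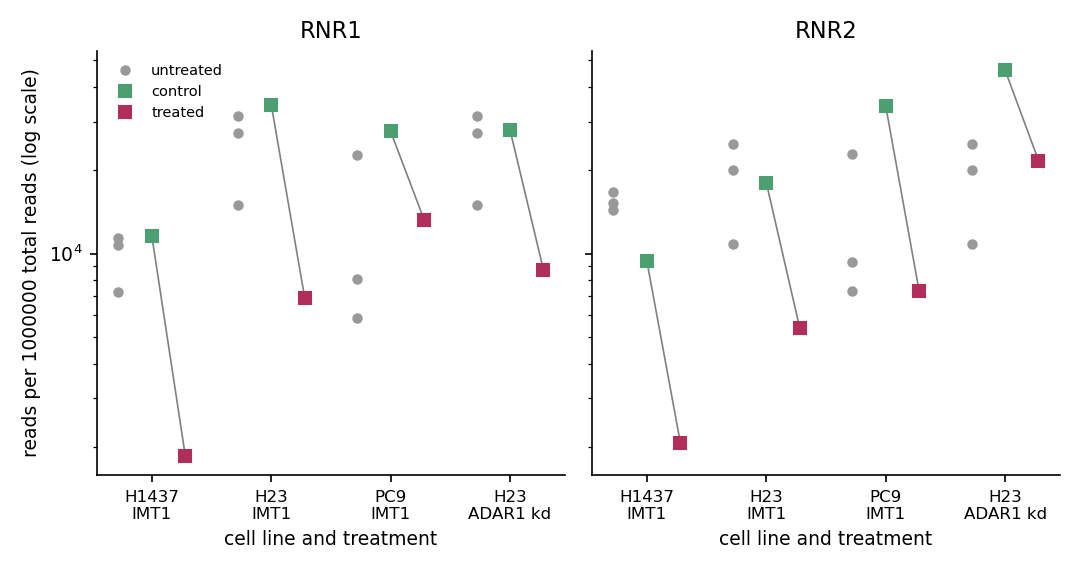
RNR1 and RNR2 rRNA-row reads per 1000000 total reads (y axis, log scale) in the control and treated library of each line in the IMT1 experiment and of H23 in the ADAR1 knockdown (x axis), joined by a line, with the 3 untreated libraries of the line as gray circles. All 8 lines slope down, and the treated RNR1 of PC9, at 13261, lies within the untreated range of 5850 to 22762.

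Among mapped reads the differences were smaller and less even. The share of RNR1 was 21.8% in the control and 16.2% with IMT1 in H1437, 11.3% and 7.05% in H23, and 41.1% and 33.7% in PC9. RNR1 was 1 of 4 rows of 38 (10.5%) that were lower in all 3 lines on this scale, with TRNL1, TRNG, and TRNS2, of which TRNG and TRNS2 were looked up after their values were seen. The share of RNR2 was 17.7% and 18.1% in H1437, 5.91% and 5.48% in H23, and 50.9% and 18.6% in PC9. The difference for RNR2 was thus largest in PC9 (mean log2 change -0.51 ± 0.82, SD, n = 3; exact sign-flip permutation test, P = 0.5). Without PC9 the mean was -0.036, and with the mean of all untreated and IMT1 control libraries of a line as control it was -0.93.

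With IMT1 the ratio of the rRNA genes was lower in H1437 and H23 and higher in PC9. The log2 ratio was 1.01 in the control and 0.55 with IMT1 in H1437, and 1.65 and 1.07 in H23, but 0.40 and 1.56 in PC9. In PC9 the treated value was above all 4 untreated and control libraries of the line, and in H1437 and H23 it was within their range. The mean change was 0.044 ± 0.97 (SD, n = 3; exact sign-flip permutation test, P = 1). The lost share of RNR2 followed the same division. It was 24.5% in the control and 12.8% with IMT1 in H1437, and 17.7% and 10.2% in H23, where the treated values were below every untreated and control library of the same line. In PC9 it was 26.2% and 27.7%. That of RNR1 was 0.978% and 0.340% in H1437, where 3 reads were lost with IMT1, 2.06% and 1.27% in H23, and 0.584% and 1.09% in PC9.

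The tRNA genes beside the rRNA genes and ND1 were the other members of the list for this end of the heavy-strand transcript. Per total reads, TRNV and TRNL1 were lower with IMT1 in 3 of 3 lines, and TRNF and ND1 in 2 of 3. By edgeR none of the 4 was called with IMT1, with log2 fold changes of -1.32 for TRNF, -0.70 for TRNV, -0.34 for TRNL1, and -0.42 for ND1 (edgeR adjusted P = 0.972 each). None was called between lines in the fit of all genes either, whereas ND1 was 1 of the 6 genes called in H23 against H1437 without the tRNA genes. ND1, which encodes a subunit of complex I, was at a log2 fold change of 1.87 ± 0.95 (SE) in H23 against H1437 (edgeR adjusted P = 0.548) and 1.49 ± 0.95 in H23 against PC9 (edgeR adjusted P = 0.873), a sign opposite to that of both rRNA genes in the same fit.

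The knockdown experiment compared H23 with and without ADAR1 knockdown, with 1 library each, so that no test was possible. ADAR1 is a nuclear gene, and its own RNA could not be checked in reads mapped to chromosome MT. The knockdown library was the smallest of the study, with 37113 total and 4100 mapped reads. RNR1 had 27976 rRNA-row reads per 1000000 total reads in the control and 8730 with knockdown, and RNR2 had 46072 and 21691. The knockdown level of RNR1 was below all 5 untreated and control H23 libraries, and that of RNR2 was within their range of 10826 to 46072. The control itself had the highest RNR2 level of the 5.

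The part of total reads that mapped was 47.2% in the control, the highest of all 17 libraries, and 11.05% with knockdown. Values per mapped and per total reads therefore differed in direction. Per total reads both genes were lower in the knockdown library, and as shares of mapped reads both were higher. RNR1 was at 5.92% (exact binomial 95% interval 5.78% to 6.07%) in the control and 7.90% (7.10% to 8.77%) with knockdown, which is 1.33-fold. RNR2 was at 9.76% (9.58% to 9.94%) and 19.6% (18.4% to 20.9%), which is 2.01-fold. RNR2 was 1 of 2 rows of 38 (5.26%) that were over 2-fold higher, with TRNF, which had 6 reads in the knockdown library. The RNR1 share was nonetheless within the range of the 5 untreated and control H23 libraries (5.92% to 24.7%), and the RNR2 share was above theirs (5.91% to 18.2%).

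RNR1 made up 37.8% (exact binomial 95% interval 37.04% to 38.53%) of the reads of both genes in the control and 28.7% (26.1% to 31.4%) with knockdown. The log2 ratio per base was -0.011 and -0.60. The knockdown library was the lowest of all 17 in this ratio, and its control was the lowest of the untreated and control H23 libraries. The lost share was 2.42% and 4.01% for RNR1 and 20.3% and 21.5% for RNR2. For both genes the knockdown value was above all 5 untreated and control H23 libraries, but the 95% intervals of the control and the knockdown overlapped, with 13 and 173 lost reads behind the values.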

How the data were processed

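J2 RIP-seq libraries of 3 lung carcinoma lines were analyzed, 17 in all. The authors base-called the reads with Dorado and mapped them to chromosome MT with minimap2 2.17-r941 and SAMtools 1.10, per the submitters' processing notes and the methods. They deposited counts of total, mapped, and unmapped records and raw featureCounts counts per annotation row, without normalization and with strands not separated. The methods name a minimum overlap of 6 bases and state in one place that overlapping reads were allowed and in another that they were left out. The deposited counts show the second.

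From the rRNA rows, levels, shares, densities, and lost shares were computed in Python 3.11.15 with numpy 2.4.6, pandas 2.3.3, and scipy 1.17.1. Exact intervals cover counting error only, since PCR reads are not independent molecules. Gene rows that reached 10 counts in 3 or more libraries were tested with edgeR 4.0.16 (TMM, quasi-likelihood, Benjamini-Hochberg) in R 4.3.3, with DESeq2 1.42.0 as an alternative. A run of edgeR on simulated counts used many more genes and less spread between libraries than these data, so it does not check this fit. Likeness used log2(reads per 1000000 mapped reads + 1).

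RNR1, RNR2, and the lists were chosen with earlier results of these data known. Named besides them were TRNF, TRNV, TRNL1, and ND1, the 3 rows most like each member, and rows denser than either. The study calls its untreated replicates independent experiments without describing separate cultures, so P values measure the spread between these libraries. All replicates of each line differed by more than sampling noise (chi-square test). Same-numbered H1437 and PC9 libraries deviated together over 35 genes (correlations 0.961, 0.947, and 0.947) and count as paired. Those of H23 did not (-0.611 to 0.456). No genome sequence was used.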

Additional observations from a re-analysis of the deposited data

Results flagged for a closer look

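With IMT1, 4 measures of the rRNA genes moved one way in some lines and the opposite way in others, with 1 pair of libraries per line. These differences between lines were not tested. The log2 ratio of RNR1 to RNR2 per base changed by -0.46 in H1437, by -0.57 in H23, and by 1.16 in PC9. The log2 share of RNR2 among mapped reads changed by 0.036 in H1437, by -0.11 in H23, and by -1.45 in PC9. The share of RNR1 reads lost in the gene row changed by -0.638, -0.786, and 0.507 percentage points in H1437, H23, and PC9, and that of RNR2 by -11.7, -7.47, and 1.60 points. PC9 thus stood opposite to both other lines in the ratio and in both lost shares, while in the share of RNR2 it was H1437 that differed in sign, by an amount near 0. A check of the highest and lowest library in each line over the untreated and control libraries singled out 0 of 21 combinations of line and measure.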

How the results depend on the processing

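Across lines, 84 of 103 alternatives kept the side of the 0.05 threshold (unadjusted P). In these exact permutation tests, adding all control libraries gave P = 0.137 for the ratio, 0.0301 for the RNR1 level, 0.0193 and 0.0134 for the RNR1 and RNR2 shares of mapped reads, and 0.0125 and 0.0113 for the lost shares. Adding only the IMT1 controls, chosen after seeing the data, gave 0.0455 for the RNR1 level, 0.0410 and 0.0260 for the shares, and 0.0254 and 0.0126 for the lost shares. The RNR2 share gave 0.0321 on the log2 scale and 0.0321 with CDS, rRNA, and D-loop reads as denominator. The replicate block gave 0.0278 for the RNR2 lost share and 0.0278 for the ratio and changed no other call across lines, and pairing H1437 with PC9 (added after seeing the data) changed no call between them. Leaving out each library gave P from 0.00357 to 0.0107 for the ratio, 0.0464 to 0.246 and 0.154 to 0.871 for the RNR1 and RNR2 levels, 0.164 to 0.482 and 0.0286 to 0.211 for the shares, and 0.0429 to 0.182 and 0.0107 to 0.154 for the lost shares. Within libraries all 23 alternatives kept both calls, with means of 0.48 to 0.68 (log2 ratio) and 18.5 to 21.0 points (lost shares) leaving out each library. On gene rows the mean log2 ratio was 0.89. With IMT1, the mean change of the ratio was -0.052 on gene rows, 0.39 with all untreated and IMT1 control libraries as control, and from -0.52 (without PC9) to 0.35 leaving out each line. The same control gave -0.93 for the RNR2 share. Leaving out each line gave -2.48 to -1.69 and -2.20 to -1.96 for the RNR1 and RNR2 levels, -0.55 to -0.36 and -0.78 to -0.036 for the shares, and -0.712 to -0.0655 and -9.58 to -2.94 points for the lost shares. Against the mean of the 5 H23 untreated and control libraries, the knockdown changes were -1.61 (ratio), -0.14 (RNR2 level), and -0.69 (RNR1 share, which reversed). Genes called numbered 6 in H23 against H1437 without tRNA genes, 10 in the blocked fit of H1437 and PC9 alone (added after seeing the data), and for IMT1 3 by DESeq2 and 1 (TRNV) without the line block. Leaving out each library or line gave 0 calls in each comparison. With total reads as library size, the log2 fold changes reversed to 1.31 (RNR1) and 0.43 (RNR2) in H23 against H1437 and 1.00 and 0.72 in H23 against PC9. RNR2 in H1437 against PC9, at -0.15, turned to 0.21 on CDS, rRNA, tRNA, and D-loop rows, 0.30 without the filter, 0.16 without tRNA genes, 0.30 with total reads, and 0.11 in the blocked fit of these 2 lines. It ran from -1.03 to 1.13 leaving out each library, with 0.27 and 0.015 without H1437 replicates 2 and 3, 0.0044 without H23 replicate 2, and 1.13 without PC9 replicate 1. RNR1 in this comparison, at -0.74, ran from -1.86 to 0.58, the latter without PC9 replicate 1. The cause was not tested. The knockdown library held 4100 mapped reads and has no replicate.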
